A study of Mus musculus with 12 samples.

Results

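Mitochondrial piRNAs (mito-piRNAs) of somatic cells (SCs) and primordial germ cells (PGCs) from embryonic mouse testes were compared in the 6 male libraries of the series, out of 12 libraries in all. The members were the libraries whose names end in M: PGC11M, PGC12M and PGC13M hold PGC RNA and SC11M, SC12M and SC13M hold SC RNA, from embryonic days E11.5, then E12.5, then E13.5 in that order, counted postcoitum. All came from untreated CD1 embryos whose gonads were pooled from several litters, and PGCs were separated from SCs on magnetic beads carrying an antibody against the germ cell surface antigen CD15. SCs are therefore all gonadal cells that the beads did not hold, a mixture and not 1 cell type. Both fractions were checked with a PGC stain. Each cell type had 1 library per day, so the 3 SC libraries were set against the 3 PGC libraries in day pairs, and every p-value below treats the days as replicates. The files hold mitochondrial small RNA sequences only, so the labels PGC and SC could not be checked against marker genes of either cell type.

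piRNAs are small RNAs carried by PIWI proteins, which are best known for silencing transposons in the germ line. The sequences studied here match both the mitochondrial DNA (mtDNA) and a collection of piRNAs recovered from PIWI immunoprecipitates. Both strands of the mtDNA are transcribed as long RNAs from promoters in the D-loop, the main noncoding region, and the tRNAs punctuate these transcripts and are cut out of them at both ends. Copies of mtDNA inserted in the nuclear chromosomes (NUMTs) can carry the same short sequences, so a short read may match both genomes. Between E11.5 and E13.5 the male gonad becomes a testis: its SCs form Sertoli and interstitial lineages around the PGCs, which enter mitotic arrest soon afterwards.

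The sequences on which the comparison turned are given first, as DNA letters from 5′ to 3′ with their place on the GRCm39 mtDNA. Capitals mark the bases beyond the 16th, since 16 nt was the shortest length listed and sequences of a family (those sharing a 5′ end) differ in how far they extend past it. The tRNA-SerGCT gene (mt-Ts2, chrM:11613-11671, + strand) encodes the serine tRNA that lacks a D arm, and these members of its family start at its first base.
tRNA-SerGCT 18 nt (chrM:11613-11630, +): aagaaagattgcaagaAC
tRNA-SerGCT 22 nt (chrM:11613-11634, +): aagaaagattgcaagaACTGCT
tRNA-SerGCT 26 nt (chrM:11613-11638, +): aagaaagattgcaagaACTGCTAATT
tRNA-SerGCT 31 nt (chrM:11613-11643, +): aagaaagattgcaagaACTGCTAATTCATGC
The 18-nt, 22-nt and 26-nt forms also matched a nuclear chromosome exactly, and the 31-nt form did so with 1 mismatch.

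The 16S rRNA gene (mt-Rnr2, chrM:1094-2675, + strand) encodes the large ribosomal RNA, and its main family also starts at the first base of the gene. The 29-nt, 34-nt and 26-nt forms had no nuclear match with up to 1 mismatch, while the 23-nt form had 2 matches with 1 mismatch.
16S rRNA 23 nt (chrM:1094-1116, +): actaatcctagccctaGCCCTAC
16S rRNA 26 nt (chrM:1094-1119, +): actaatcctagccctaGCCCTACACA
16S rRNA 29 nt (chrM:1094-1122, +): actaatcctagccctaGCCCTACACAAAT
16S rRNA 34 nt (chrM:1094-1127, +): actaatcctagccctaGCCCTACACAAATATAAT

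The D-loop (chrM:15423-16299) gave reads from the reverse strand only, all with the same 5′ end. tRNA-SerTGA (mt-Ts1, chrM:6870-6938, encoded on the reverse strand) is the other serine tRNA, and tRNA-LeuTAA (mt-Tl1, chrM:2676-2750, + strand) follows the 16S rRNA gene. The members shown differed most between the cell types, were listed in 1 of them only, or, for the 26-nt D-loop form, were the most read of the family in 2 of 3 PGC libraries.
D-loop 20 nt (chrM:16169-16188, -): gaattgatcaggacatAGGG
D-loop 21 nt (chrM:16168-16188, -): gaattgatcaggacatAGGGT
D-loop 24 nt (chrM:16165-16188, -): gaattgatcaggacatAGGGTTTG
D-loop 26 nt (chrM:16163-16188, -): gaattgatcaggacatAGGGTTTGAT
tRNA-SerTGA 18 nt (chrM:6921-6938, -): gagaaagacatataggAT
tRNA-LeuTAA 20 nt (chrM:2676-2695, +): attagggtggcagagcCAGG

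The 6 male libraries held 215951 mito-piRNA reads, from 25388 in SC11M to 59545 in SC13M which was between 0.501% and 1.31% of all small RNA reads left after low sequences were removed. Levels are given per 1000000 of those library reads (rpm), so 1 rpm stands for 4.41 to 5.62 reads. Low sequences are missing from the files: the lowest level listed was between 16.6 and 17.8 rpm in the PGC libraries and between 14.6 and 15.2 rpm in the SC libraries, so a sequence called not listed could have been present below that level, and slightly more so in PGCs. The male libraries listed 154 of the 204 sequences of the series. SC13M stood apart from the other 5: 28 of its 103 sequences differed from the mtDNA by 1 base, against 3 to 8 in the others, and they took 10.9% of its reads (95% Wilson interval 10.6 to 11.1, counting error only), against 2.35% to 5.28%. Some of the main results in which SC13M took the extreme value are also given without it: the total, the tRNA-SerGCT and tRNA-SerTGA features and several of their sequences. Among the female libraries, which are used only for comparison, PGC13F stood apart: 30 of its sequences were listed in no other library and took 36.6% of its reads, against 0 to 16 sequences and at most 3.49% in the other 11 libraries. It listed tRNA-SerGCT reads of 17 nt (23.7% of that family), a length found in no other library, and none of the 22-nt reads that all others had.

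Total mito-piRNA level did not separate the cell types. It was 7875, 5057 and 7222 rpm in PGCs at E11.5, at E12.5 and at E13.5 and 5762, 5009 and 13129 rpm in SCs. SCs were lower at E11.5, nearly level at E12.5 and higher at E13.5, with SC to PGC ratios of 0.732, 0.991 and 1.82. The SC mean was 7967 ± 4486 rpm and the PGC mean 6718 ± 1475 rpm (SD, n = 3), and the two-sided exact sign-flip permutation test on log2(rpm + 1) over the 3 pairs gave p = 1. The log2 difference was 0.13, and -0.23 without SC13M. That test cannot go below 0.25 with 3 pairs, nor an unpaired exact permutation test below 0.1. Levels are relative to all small RNA reads of a library. A lower level in these bulk libraries may therefore mean fewer cells of a kind, less RNA per cell or more of other small RNAs. The data cannot tell these apart. The excess at E13.5 lay in tRNA-SerGCT: without this gene the totals were 5883, 2786 and 5922 rpm in PGCs and 4801, 2879 and 6101 rpm in SCs.

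**Figure D1:**
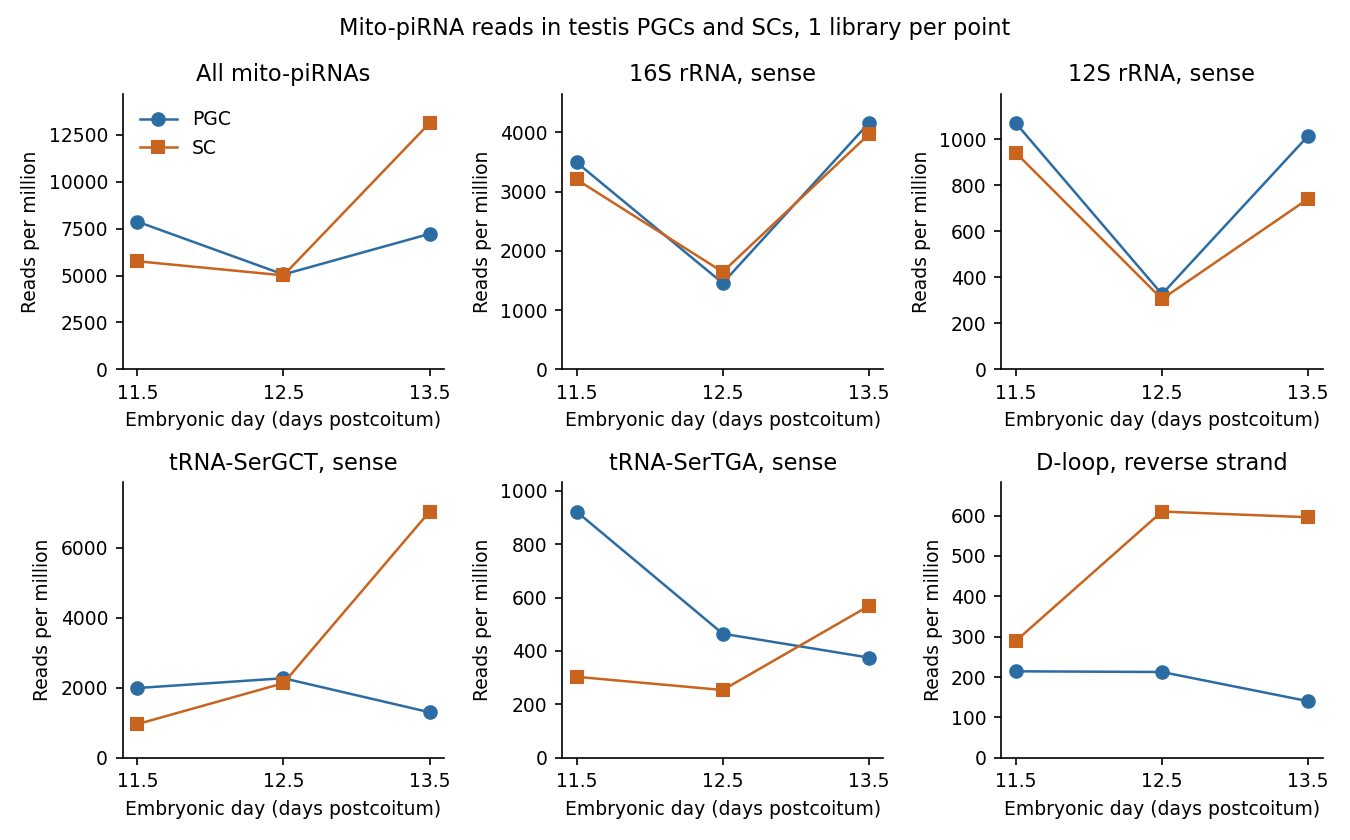
Level (y axis, rpm, linear from 0) against day (x axis, days postcoitum) for all mito-piRNAs and for the 5 most read gene features in testis PGCs (blue circles) and SCs (orange squares), 1 library per point and no error bars. The cell types follow each other for the rRNAs, SC13M reaches 7028 rpm for tRNA-SerGCT, and the 3 SC points lie above the 3 PGC points only for the D-loop.

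Reads were next summed per gene and orientation. Sequences were found in 2 of 2 rRNA genes, in 8 of 22 tRNA genes, 5 of those among the 8 tRNA genes encoded on the reverse strand, in 3 of 13 protein-coding genes and in the D-loop. Of 11 features listed in at least 3 male libraries, 0 (0%) passed an adjusted p of 0.05 in edgeR's quasi-likelihood test with day as a block, and 0 had an unadjusted p under 0.05. DESeq2 on the same counts and library totals called 3 features, all with a fitted difference below 0 (27.3% of 11): tRNA-LeuTAA, tRNA-Ala reverse and tRNA-Pro reverse. All 3 were unlisted in 2 of 3 SC libraries. For tRNA-Pro reverse the fitted direction ran against the group means: the PGC mean was 18.1 ± 18.5 rpm and the SC mean 31.5 ± 54.6 rpm (SD, n = 3). The libraries of the cell types did not overlap for 1 feature higher in SCs, the D-loop (9.09% of 11), and for 1 higher in PGCs, tRNA-LeuTAA (9.09%).

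The rRNA features were close in the SC and PGC libraries of the same day. 16S rRNA reads were 3492, 1455 and 4155 rpm in PGCs and 3204, 1643 and 3965 rpm in SCs. Both cell types were lowest at E12.5, and the ratios by day were 0.917, 1.13 and 0.954. edgeR put the SC minus PGC difference at -0.01 on the log2 scale (SE 0.23, unadjusted p = 0.982). 12S rRNA, the small ribosomal RNA (mt-Rnr1), followed the same course, with 1070, 327 and 1014 rpm in PGCs and 941, 305 and 740 rpm in SCs. SCs were lower on 3 of 3 days, but the groups overlapped widely (log2 difference -0.25, SE 0.34, unadjusted p = 0.498 in edgeR). With DESeq2's own size factors, which raised the median feature by 0.41 on the log2 scale, the 16S and 12S differences were 0.41 and 0.17, neither of them above that shift. The 12S difference kept its sign in 17 of 18 alternatives and the 16S difference, which was near 0, in 11 of 18. The family at the first base of 12S rRNA was at 626, 140 and 654 rpm in PGCs and 748, 197 and 601 rpm in SCs, higher in SCs on 2 of 3 days (log2 difference 0.21, SE 0.18, adjusted p = 0.871 in edgeR).

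The 16S rRNA family at the first base was at 2386, 1178 and 2993 rpm in PGCs and 2548, 1312 and 3485 rpm in SCs (log2 difference 0.16, SE 0.17, adjusted p = 0.871 in edgeR). The 23-nt form, the most read, was at 560, 265 and 706 rpm in PGCs and 588, 339 and 695 rpm in SCs. The 29-nt form was at 290, 166 and 366 rpm in PGCs and 291, 150 and 377 rpm in SCs, with ratios of 1, 0.907 and 1.03. As a share of the family, 29 nt took 12.2%, 14.1% and 12.2% in PGCs and 11.4%, 11.4% and 11.7% in SCs, and 31 nt took 4.06%, 4.92% and 4.08% in PGCs and 3.45%, 3.43% and 3.82% in SCs. Neither pair of ranges overlapped, and 26 nt was listed in PGCs only, so the filter fixed its side. These were 3 of the 14 lengths of the family, and 0 lengths lay apart the other way. In females both shares overlapped, with PGC13F last among the PGC values. There 29 nt took 11.8%, 12.2% and 10.6% in PGCs and 10.8%, 8.36% and 13.9% in SCs. For 31 nt the female shares were 3.63%, 3.78% and 1.93% in PGCs and 3.04%, 2.19% and 3.66% in SCs. The 34-nt form was at 300, 77.4 and 437 rpm in PGCs and 414, 153 and 662 rpm in SCs, so SCs were higher on 3 of 3 days, by 1.38, 1.98 and 1.52 times, although the libraries of the 2 cell types overlapped. Its log2 difference was 0.68 (SE 0.24, unadjusted p = 0.0489, adjusted p = 0.688 in edgeR), and its adjusted p ranged from 0.0118 to 1 over 18 alternatives. Over the same 18, which include leaving out SC13M, the difference lay between 0.52 and 0.79. A 16S rRNA sequence of 31 nt starting at position 2645, near the 3′ end of the gene, made up a family by itself and was at 140, 58.9 and 148 rpm in PGCs and 106, 70.3 and 93.05 rpm in SCs (log2 difference -0.27, SE 0.27, adjusted p = 0.871 in edgeR).

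tRNA-SerGCT lay lower in SCs on the first days and far higher on the last. It was at 1992, 2271 and 1300 rpm in PGCs and at 961, 2130 and 7028 rpm in SCs, which put SCs at 0.482, 0.938 and 5.41 times the PGC level. The SC mean was 3373 ± 3219 rpm and the PGC mean 1854 ± 500 rpm (SD, n = 3), and edgeR's log2 difference of 0.37 had an SE of 0.67 (unadjusted p = 0.601). Without SC13M the difference was -0.57, the opposite direction, and the block by day then leaves only E11.5 and E12.5. The most read sequence of all, the 22-nt form, moved the same way: 407, 597 and 271 rpm in PGCs and 153, 568 and 1991 rpm in SCs (log2 difference 0.37, and -0.74 without SC13M). The 26-nt form was higher in SCs on each day, at 156, 277 and 683 rpm against 131, 164 and 103 rpm in PGCs, with a log2 difference of 1.22 (SE 0.62, adjusted p = 0.861 in edgeR), and 0.51 without SC13M.

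Of 15 lengths in the tRNA-SerGCT family, 4 had shares that did not overlap between the cell types, 3 higher in SCs (21, 26 and 32 nt) and 1 in PGCs (18 nt). Sequences of 18 nt took 15.8%, 10.1% and 18.8% of the family reads in PGCs and 5.6%, 2.3% and 6.6% in SCs, while those of 26 nt took 6.6%, 7.2% and 7.9% in PGCs and 18.4%, 13.1% and 10.9% in SCs. In females, with PGC13F last among the PGC values, both shares overlapped: 18 nt took 6.53%, 3.43% and 0.90% in PGCs and 5.01%, 1.87% and 1.78% in SCs, and 26 nt took 13.97%, 11.9% and 13.7% in PGCs and 19.9%, 19.5% and 8.40% in SCs. Of 53 lengths in the 5 largest families, 5 had a share that was higher in the 3 SC libraries than in the 3 PGC libraries (9.43%) and 5 the reverse (9.43%), and 2 and 1 of these were listed in 1 cell type only, so the filter fixed their side. With each missing length set to the lowest listed count of its library, 2 of the first 5 and 3 of the second 5 stayed apart on the same side: 21 and 26 nt of tRNA-SerGCT, and 18 nt of tRNA-SerGCT with 29 and 31 nt of 16S rRNA. The 24-nt share of the D-loop family then changed sides, with 5.70%, 5.89% and 6.91% in PGCs and 4.74%, 3.65% and 5.25% in SCs. In level, the 18-nt form was at 314, 230 and 245 rpm in PGCs and at 47.9, 47.9 and 436 rpm in SCs. SCs were far lower at E11.5 and E12.5, at 0.152 and 0.208 times the PGC level, and higher at E13.5. The edgeR difference over all days was -1.48 (SE 0.94, adjusted p = 0.889). Without SC13M, the library that went the other way, it was -2.49 with an adjusted p of 4.38e-07 in edgeR. That fit leaves only the pairs of E11.5 and E12.5, and the form was chosen after its values were seen. In females the 18-nt form was at 132, 28.2 and 19.8 rpm in PGCs, the last in PGC13F. Female SCs had 117, 33.4 and 62.1 rpm, higher on 2 of 3 days. The 31-nt form was lower in SCs on 3 of 3 days, at 48.8, 161 and 59.3 rpm against 117, 237 and 88 rpm (log2 difference -0.79, SE 0.28, unadjusted p = 0.0508, adjusted p = 0.688 in edgeR).

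**Figure D2:**
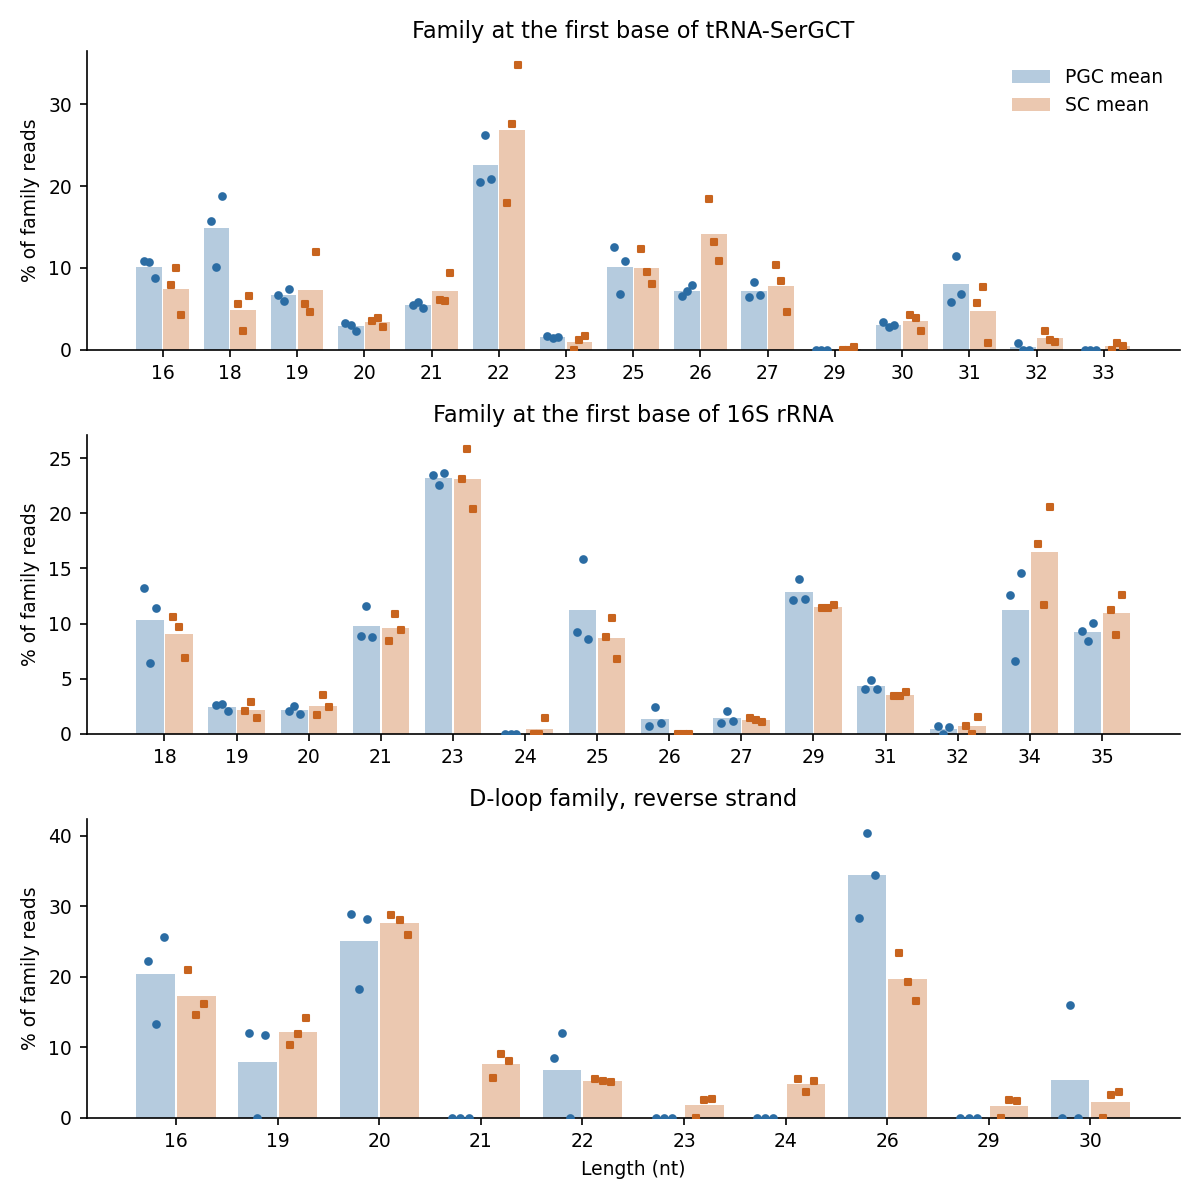
Share of family reads (y axis, percent) by sequence length (x axis, nt, listed lengths only) for the families at the first base of tRNA-SerGCT and of 16S rRNA and for the D-loop family. Bars are means of 3 libraries and points are single libraries, PGCs in blue and SCs in orange. PGCs lie above SCs at 18 nt of tRNA-SerGCT, at 29 and 31 nt of 16S rRNA and at 26 nt of the D-loop. They also do at 26 nt of 16S rRNA, which SCs did not list. SCs lie above PGCs at 21, 26 and 32 nt of tRNA-SerGCT and at 21 and 24 nt of the D-loop, which PGCs did not list. With missing lengths set to the lowest listed count (not drawn), 32 nt of tRNA-SerGCT, 26 nt of 16S rRNA and 21 and 26 nt of the D-loop overlapped. The 24-nt D-loop share then lay higher in PGCs.

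Another tRNA-SerGCT sequence was listed in SCs alone. It starts 2 bases inside the gene and shares its 3′ end with a 21-nt member of the main family, in which capitals mark the 2 bases that it lacks.
tRNA-SerGCT 21 nt (chrM:11613-11633, +): AAgaaagattgcaagaactgc
tRNA-SerGCT 19 nt (chrM:11615-11633, +): gaaagattgcaagaactgc
The 19-nt sequence was at 77.6, 16.7 and 16.5 rpm in SCs and was not listed in any of the 3 PGC libraries. Only the E11.5 value stands clear of the lowest level listed in PGCs on the same day, which was 17.1, 17.8 and 16.6 rpm. The 21-nt member was listed in all 6 libraries, at 109, 132 and 65.8 rpm in PGCs and 51.7, 127 and 588 rpm in SCs. The family of 2 sequences with this start was listed in no PGC library either, so it entered the tests through the SC libraries alone and its p-values are not given as results.

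The D-loop was the 1 of the 11 features tested whose SC libraries all lay above the PGC libraries. Its reverse-strand reads were at 214, 213 and 140 rpm in PGCs and at 289, 610 and 596 rpm in SCs. SCs were higher on each of the 3 days, and the ratio widened from 1.35 at E11.5 to 2.87 and 4.25. The means were 498 ± 181 rpm and 189 ± 42.2 rpm (SD, n = 3), a log2 difference of 1.35 (SE 0.61, unadjusted p = 0.0644, adjusted p = 0.474 in edgeR over features). As a family, with the spread shared over 34 families, the same reads had an SE of 0.40, an unadjusted p of 0.0357 and an adjusted p of 0.618 in edgeR. It was the 1 family (2.94% of 34) with an unadjusted p under 0.05 while 0 families (0%) had an adjusted p under 0.05, and DESeq2 called 5 families, 2 higher in SCs (5.88%) and 3 lower (8.82%). The 2 were this one and the tRNA-SerGCT family of 2 sequences, which passed the filter through SCs alone. The libraries did not overlap for 2 families higher in SCs (5.88%) and 2 higher in PGCs (5.88%). The difference stayed positive in 18 of 18 alternatives, from 0.72 to 1.87, and passed in 2 of them, both DESeq2. D-loop reads made up 5.02%, 12.2% and 4.54% of the mito-piRNA reads in SCs and 2.72%, 4.20% and 1.94% in PGCs, higher in SCs on 3 of 3 days (exact sign-flip permutation p = 0.25, the smallest it can give, and 1 after Benjamini-Hochberg adjustment over 10 measures).

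Single D-loop sequences did not all follow the sum. The 30-nt form was lower in SCs at E12.5, at 19.4 rpm against 33.99 rpm, and was otherwise listed in SC13M only, at 21.6 rpm. The 22-nt form was lower in SCs at E11.5, at 15.9 rpm against 18.3 rpm, and higher on the other days. The 20-nt form was at 61.9, 38.8 and 39.5 rpm in PGCs and 83.3, 171 and 155 rpm in SCs, without overlap (log2 difference 1.52, SE 0.48, unadjusted p = 0.0367, adjusted p = 0.688 in edgeR). The 26-nt form was at 60.7, 85.9 and 48.3 rpm in PGCs and 67.6, 117 and 98.6 rpm in SCs, higher in SCs on each day but overlapping. As a share of the family, the 26-nt form was the lower one in SCs, with 23.4%, 19.2% and 16.5% against 28.3%, 40.4% and 34.5%. These shares count listed lengths only, and with each missing length set to the lowest listed count they overlapped, at 20.2%, 19.2% and 16.5% in SCs and 20.2%, 28.5% and 20.2% in PGCs. The 21-nt form, at 16.3, 32.7 and 24.7 rpm, and the 24-nt form, at 15.9, 22.2 and 31.3 rpm, were listed in all 3 SC libraries and in no male PGC library. The female PGC library of E11.5 did list them, at 27.9 rpm and 23.95 rpm. Since their levels in SC11M were under the lowest level listed in PGC11M, only E12.5 and E13.5 show them above the lowest level listed in the PGC library of the same day.

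tRNA-SerTGA was higher in PGCs on the first days. It was at 922, 465 and 375 rpm in PGCs and 303, 254 and 568 rpm in SCs, with ratios of 0.329, 0.546 and 1.52, and the libraries overlapped (log2 difference -0.64, SE 0.59, unadjusted p = 0.315 in edgeR). Without SC13M or without PGC13M the difference was -1.24. As a family, among 34, the same reads had an adjusted p of 0.0444 in edgeR without PGC13M and 0.0861 without SC13M. Its 18-nt form had the lowest p of all sequences. That form was at 581, 279 and 173 rpm in PGCs and at 150, 132 and 109 rpm in SCs, with all 3 PGC libraries above all 3 SC libraries (log2 difference -1.23, SE 0.35, unadjusted p = 0.0282, adjusted p = 0.688 in edgeR). Without SC13M, which leaves only the pairs of E11.5 and E12.5, the difference was -1.52 with an adjusted p of 0.00399 in edgeR. The 18-nt form was the most read length of the family in the 3 PGC libraries, with 63.0%, 60.1% and 46.2% of its reads, and 49.3%, 52.0% and 19.2% in SCs. In the female libraries the 18-nt form was at 169, 22.3 and 207 rpm in PGCs and 221, 89.7 and 540 rpm in SCs, higher in SCs on 3 of 3 days. The test of the difference between the sexes gave -2.49 on the log2 scale (unadjusted p = 0.0864, adjusted p = 1 in edgeR), and -3.04 without PGC13F (unadjusted p = 0.0375, adjusted p = 1). Without SC13M that difference was -2.14 (unadjusted p = 0.179 in edgeR).

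The tRNA features with few reads were listed at 14.6 to 177 rpm, and those described here were listed in 2 or 3 PGC libraries and in 1 or 2 SC libraries. tRNA-LeuTAA was at 36.6, 177 and 63.2 rpm in PGCs, was not listed in SC11M and SC12M, and was at 19.2 rpm in SC13M. Its 20-nt form was at 17.3, 22.0 and 18.8 rpm in PGCs and in no SC library. tRNA-Ala reverse, antisense to a tRNA gene of the reverse strand, was at 43.2, 19.1 and 97.4 rpm in PGCs and only in SC13M among the SCs, at 41.0 rpm. tRNA-Gln was listed at 23.4, 72.4 and 17.7 rpm in PGCs and at 51.1 and 14.6 rpm in SC12M and SC13M. tRNA-Pro reverse was listed at 17.3 and 36.9 rpm in PGC11M and PGC12M and at 94.6 rpm in SC13M, and tRNA-Glu at 19.5 and 22.0 rpm in PGC11M and PGC12M and 15.7 rpm in SC12M. No fold is given for these, since the levels below the listed minimum are unknown. Their adjusted p values in edgeR were 0.474 for tRNA-LeuTAA, 0.568 for tRNA-Ala reverse, 0.836 for tRNA-Gln and tRNA-Pro reverse, and 0.909 for tRNA-Glu.

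Protein-coding genes were almost absent from both cell types. ND3, a subunit of respiratory complex I, was listed in the sense direction at 28.6 and 41.8 rpm in PGC11M and PGC13M and at 64.7 and 21.2 rpm in SC11M and SC13M. The other features were each listed in a single male library: COX1 at 23.4 rpm and tRNA-His at 17.2 rpm in SC13M, ATP8 at 17.5 rpm in PGC13M and ND3 reverse at 17.3 rpm in PGC11M.

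Sequence by sequence, SCs and PGCs of the same day shared most of their reads. Sequences listed in both libraries of a day carried 95.6%, 93.0% and 87.2% of the SC reads and 90.1%, 92.6% and 89.3% of the PGC reads. They were 84.7%, 76.3% and 59.2% of the SC list of the day and 63.5%, 76.3% and 62.9% of the PGC list. Pooled over all days, the SC libraries listed 115 sequences and the PGC libraries 117. Of these 78 were shared, on the same day or not, 67.8% of the SC list and 66.7% of the PGC list. The shared sequences carried 92.7% of the SC reads and 93.2% of the PGC reads. The 39 sequences listed in all 6 libraries, 22 on rRNA genes, 14 on tRNA genes and 3 in the D-loop, held 84.2% of the reads. Over the sequences listed in both libraries of a day, Pearson's r of log2 rpm was 0.876 at E11.5 (n = 61), 0.848 at E12.5 (n = 45) and 0.736 at E13.5 (n = 61). These values describe sequences that overlap one another and come from the same libraries. Their median SC minus PGC difference was -0.18, 0.06 and -0.02 on the log2 scale.

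**Figure D3:**
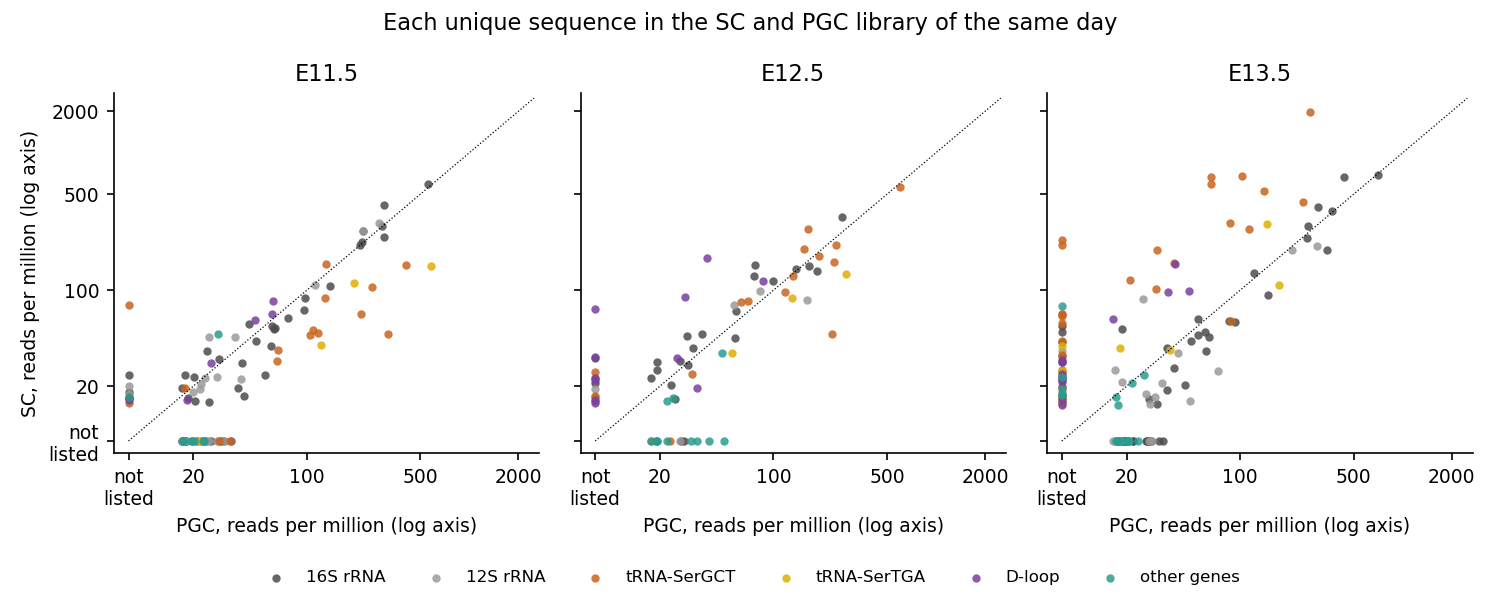
Level of each unique sequence in the PGC library (x axis, rpm, log axis) and the SC library (y axis, rpm, log axis) of the same day, coloured by gene. Points on the outer lines were not listed in that library and the dotted line marks equal levels. The tRNA-SerGCT points lie mostly below the line at E11.5 and mostly above it at E13.5, the D-loop points lie mostly above it at E12.5 and E13.5, and the 16S rRNA points listed in both libraries lie on both sides of it while others lie on the outer lines.

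Of 78 sequences listed in at least 3 male libraries, 0 (0%) had an adjusted p under 0.05 in edgeR's quasi-likelihood test and 4 (5.13%) had an unadjusted p under 0.05. Those were the 18-nt tRNA-SerTGA, 20-nt D-loop, 19-nt tRNA-SerGCT and 34-nt 16S rRNA sequences, of which the 19-nt one was listed in SCs only and entered the test through them. DESeq2 with the same library totals called 13, of which 7 were higher in SCs (8.97%) and 6 lower (7.69%). With its own size factors it called 6 higher (7.69%) and 8 lower (10.3%). Of each of these sets of calls, 3 of the higher and 2 of the lower sequences were listed in 1 cell type only, so that the filter had already fixed their direction. Both lower sets also hold a 19-nt tRNA-SerGCT sequence that starts at the first base of the gene and has a changed last base. Its fitted direction ran against its levels at E13.5. It was at 29.0, 17.8 and 30.3 rpm in PGCs and, among the SCs, only in SC13M, at 102 rpm. The libraries did not overlap for 7 sequences higher in SCs (8.97%), 5 of them D-loop and 2 tRNA-SerGCT sequences, and for 4 higher in PGCs (5.13%). A sequence listed in all libraries of 1 cell type and in none of the other enters this count by the filter alone, which holds for 3 of the 7 and 2 of the 4. Those in PGCs were the 26-nt 16S rRNA sequence, at 17.1, 28.2 and 28.4 rpm, and the 20-nt tRNA-LeuTAA sequence.

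Of the 154 sequences of the male libraries, 84 were rRNA, 53 tRNA, 12 D-loop and 5 protein-coding sequences, and those listed in 1 cell type only are described without a test. The 37 listed in SCs only were 19 tRNA, 11 rRNA, 6 D-loop and 1 protein-coding sequences, and 23 of them had a mismatch to the mtDNA. SC13M listed 35 of them, and 23 were listed in that library alone among the male libraries. The 39 listed in PGCs only were 29 rRNA, 8 tRNA and 2 protein-coding sequences, and 3 of them had a mismatch. Without SC13M the numbers were 14 for SCs and 49 for PGCs, and with exact matches alone they were 14 and 36. Of the 37, 9 never rose above the highest of the 6 lowest listed levels, and of the 39, 8 did not.

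The mismatched sequences of SC13M were mostly changed at their last base, 24 of 28. In tRNA-SerGCT they took 12.3% of the reads in SC13M against 0% to 2.33% in the other 5 male libraries. The most read of them were 2 forms of the 22-nt sequence, shown with the changed base in capitals and with positions counted from 1 at the 5′ end, the mtDNA base first.
tRNA-SerGCT T22C (chrM:11613-11634, +): aagaaagattgcaagaactgcC
tRNA-SerGCT T22G (chrM:11613-11634, +): aagaaagattgcaagaactgcG
T22C was at 213 rpm in SC13M and 15.7 rpm in SC12M, and T22G at 230 rpm in SC13M, and neither was listed in any PGC library. The female SC libraries listed T22C at 37.7, 17.5 and 50.4 rpm, and SC13F listed T22G at 19.8 rpm. SC13F, with 19 mismatched sequences, 13 of them at the last base, came nearest to SC13M in number. The exact form was at 1991 rpm in SC13M. With exact matches alone the log2 differences were 0.34 for tRNA-SerGCT, 1.29 for the D-loop and -0.69 for tRNA-SerTGA, against 0.37, 1.35 and -0.64 with all sequences.

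**Figure D4:**
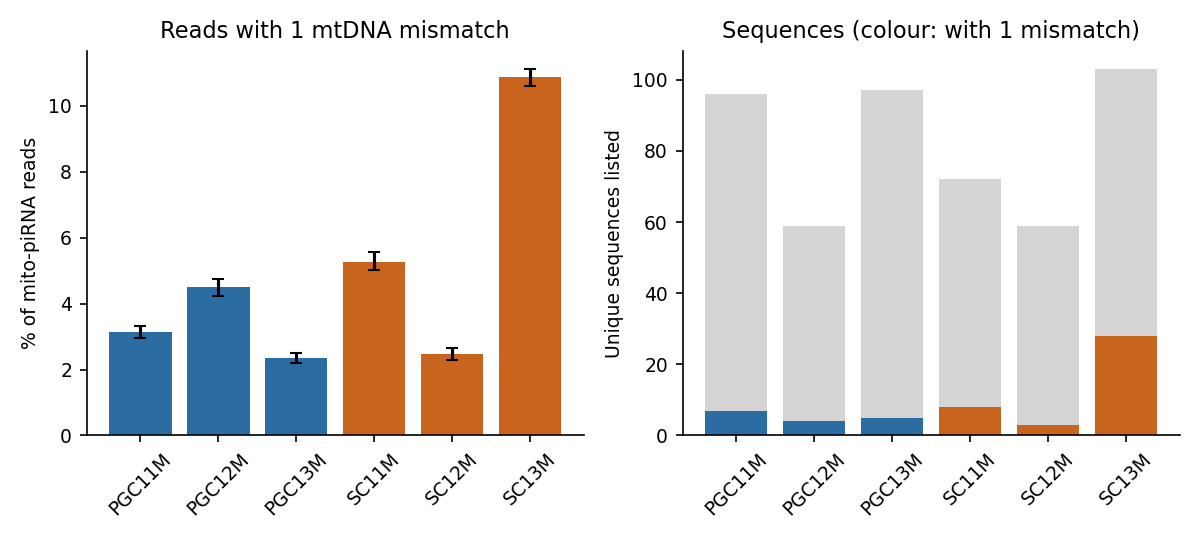
Left, share of mito-piRNA reads with 1 mismatch to the mtDNA (y axis, percent) in each male library, with 95% Wilson intervals for counting error. Right, number of unique sequences listed (grey) with those that have 1 mismatch in colour, PGCs in blue and SCs in orange. SC13M had 28 mismatched sequences and 10.9% of its reads in them.

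Other properties of the reads did not separate the cell types. Reads on tRNA genes made up 38.8%, 60.6% and 25.7% in PGCs and 21.9%, 48.9% and 59.3% in SCs. Mean length was 22.88, 23.07 and 23.96 nt in PGCs and 23.91, 23.59 and 23.56 nt in SCs. Reads starting with A were 75.4%, 80.0% and 81.8% in PGCs and 79.8%, 75.5% and 86.6% in SCs, and reads without a nuclear match were 28.8%, 20.98% and 36.6% in PGCs and 34.8%, 24.2% and 21.9% in SCs. All of these groups overlapped, and exact sign-flip permutation p values over the 10 measures were between 0.25 and 1, all 1 after adjustment. Reads that start at the first base of a tRNA or rRNA gene were between 74.8% and 89.0% of each male library.

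The male difference was last set against the female one, with SC minus PGC in males less SC minus PGC in females tested over all 12 libraries. Of 11 features, 0 (0%) had an adjusted p under 0.05 in edgeR and 1 (9.09%) had an unadjusted p under 0.05, tRNA-Ala reverse, which was listed in 1 female library. Without PGC13F, 0 of 11 had an unadjusted p under 0.05. Of 97 sequences 0 (0%) passed and 1 (1.03%) had an unadjusted p under 0.05, against 0 and 2 of 96 without PGC13F. DESeq2 called 6 of the 97 and was not run without PGC13F. For the D-loop the female levels were 634, 65.0 and 45.5 rpm in PGCs and 580, 414 and 662 rpm in SCs, and the difference between the sexes was -0.09 on the log2 scale (unadjusted p = 0.945, adjusted p = 1 in edgeR), and 0.60 without PGC13F. tRNA-SerGCT was higher in SCs on 3 of 3 days in females and on 1 of 3 in males, with a difference between the sexes of -0.14 (unadjusted p = 0.84, adjusted p = 1 in edgeR), and -0.09 without PGC13F. Without SC13M that difference was -0.83 (unadjusted p = 0.257, adjusted p = 0.79 in edgeR). tRNA-LeuTAA was not listed in any female library.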

How the data were processed

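Small RNA of testis and ovary PGCs and SCs from E11.5 to E13.5 was sequenced once for each cell type, sex and day. The authors trimmed the reads with Trim Galore, collapsed identical reads, dropped those below 10 CPM, used Bowtie to align what was left to GRCm39 nuclear DNA and mtDNA, allowing 1 mismatch, and retained those matching mtDNA and an immunoprecipitation-based piRNA database. The deposited values are raw read counts per unique sequence, not normalized. Counts were divided by the library totals that the study lists for reads passing that filter, since the files leave out the rest of each library. A missing sequence was taken as 0, so a difference near the lowest listed count may reflect the filter.

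Sequences were placed on the GRCm39 mtDNA (16299 bp), allowing 1 mismatch, and given to the GENCODE gene that covers most of the match. Nuclear matches with up to 1 mismatch were searched on 21 chromosomes. Counts were summed per gene and orientation, per 5′ end and per sequence, and items listed in at least 3 male libraries entered edgeR's quasi-likelihood test (edgeR 4.0.16, R 4.3.3), with day as a block, library sizes from the study totals and Benjamini-Hochberg adjustment. The threshold was an adjusted p of 0.05. Totals and composition used exact sign-flip permutation tests with a pseudocount of 1 rpm. Steps were tested on simulated counts. The difference between the sexes was an interaction term over 12 libraries. DESeq2 1.42.0, other library sizes, filters, a common floor of 20 rpm, exact matches, no block and leaving out each library were the alternatives, and the counts of sequences listed in 1 cell type under other settings, and length shares with missing lengths at the lowest listed count, were added after the data were seen. Python 3.11.15 did the rest.

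The pairs come from the labels, which give the same day to an SC and a PGC library. Deviations from the group means over 78 sequences correlated at 0.346, 0.597 and 0.0496 between the libraries of the same day and from -0.542 to 0.443 between days, with SC11M closer to PGC13M than to PGC11M. The text names all features, the 6 families and 5 sequences with most reads, the 5 sequences with the lowest p, and those listed in all 3 libraries of 1 cell type only. The 18-nt tRNA-SerGCT, 21-nt tRNA-SerGCT, 22-nt, 26-nt and 30-nt D-loop and last-base forms were chosen after their values were seen. The comparison, its members and its gene lists were chosen with earlier results of these data known.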

Additional observations from a re-analysis of the deposited data

How the results depend on the processing

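The number of items with an adjusted p under 0.05 depended on the tool. edgeR called 0 features, families and sequences, while DESeq2 called 3, 5 and 13 with the study totals and 4, 5 and 14 with its own size factors. For the difference between the sexes DESeq2 called 6 sequences. Family calls in edgeR were 1 with the deposited counts as library totals (tRNA-LeuTAA, lower in SCs) and 1 with all 12 libraries (tRNA-SerGCT starting at position 11615, listed in no PGC library and so fixed in direction by the filter). Leaving out each library gave 0 to 2 families, with 2 without PGC13M (tRNA-LeuTAA and tRNA-SerTGA, lower in SCs) and 1 without SC13M (tRNA-LeuTAA). Without PGC13M the tRNA-LeuTAA call rests on E11.5 and E12.5, when no SC library listed it. Without SC13M tRNA-LeuTAA is listed in PGCs only. In both cases the filter fixed the direction of that call. Leaving out each library also gave 0 features and 0 to 2 sequences. The 2 were the 18-nt tRNA-SerGCT and 18-nt tRNA-SerTGA forms, lower in SCs, without PGC13M or without SC13M. For the difference between the sexes it gave 0 to 1 sequences, the 1 being without PGC11F. Removing 1 library of a day leaves 2 day pairs. Without a replicate block by day edgeR also called 0 features, 0 families and 0 sequences. Other alternatives changed no count of calls, and the causes were not tested.

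Counted once per sequence, the share starting with A, SC minus PGC, was -6.64 percentage points (exact permutation p = 0.25). The 37 sequences listed in SCs only were 14 with exact matches and 14 to 41 when 1 library was left out, with the lowest value without SC13M. The total with the deposited counts as library totals was not run, since every library then has the same total. DESeq2's own size factors shifted the median feature by 0.41 and the median family by 0.54 on the log2 scale. With each missing length set to the lowest listed count, an alternative added after the data were seen, 6 lengths had higher shares in SCs and 8 in PGCs, against 5 and 5. Depth limited all results to sequences above the lowest listed levels, with 3 libraries a side.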

Other observations

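The longest members of the 16S rRNA family at the first base, of 34 and 35 nt, took a larger share of the family in SCs on 3 of 3 days in males: 28.4%, 20.6% and 33.1% in SCs against 21.9%, 15.0% and 24.7% in PGCs. The libraries of the cell types overlapped, and the measure was chosen after its values were seen, so no test was made. In females the share was 22.4%, 12.7% and 20.98% in SCs and 19.1%, 17.5% and 23.2% in PGCs, higher in SCs on the first day only. The last of those PGC values comes from PGC13F, the library whose lengths stood apart.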
